A study of Homo sapiens with 6 samples.

Results

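The genes described here encode subunits of the GABA-A receptor, the chloride channel through which the neurotransmitter GABA inhibits neurons. A set of 9 was selected on the measured difference in read counts between the CAG and PGK lines: GABRA2, GABRA3, GABRA4, GABRA5, GABRB1, GABRB2, GABRE, GABRG3 and GABRQ. Of these, 8 were found among the 20169 gene rows by their Ensembl identifier in GENCODE 29, and GABRQ was matched to no row and is not analysed here. Since that comparison chose the set, the differences of these genes are given as a description without a test. RNA-seq of polyadenylated RNA was made from HEK293T cells, a human embryonic kidney line transformed by viral genes. They carried a landing pad, which is a genomic site built to accept inserted DNA, under either the PGK promoter (from a glycolytic gene) or the CAG promoter (a strong composite one), and there were 3 libraries of each. The series design calls the lines monoclonal and its labels distinguish 1 line for each promoter, so promoter and clone cannot be told apart. Separate cultures are named for none of the replicates, and the p-values thus reflect a spread between samples that may be technical.

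A GABA-A receptor is a ring of 5 subunits around a chloride pore, most often alpha and beta subunits with a gamma or a delta subunit. GABA binds between beta and alpha subunits, the alpha and gamma subunits set the response to benzodiazepines, and delta-containing receptors act outside synapses. Beside these stand the rarer epsilon, theta and pi subunits and the rho subunits, which form receptors of their own, chiefly in the retina. Most of the genes lie in clusters of neighbours, and HEK293 cells are a common host for studying cloned receptors.

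Total counts per library ran from 21896246 to 23442542. The 3 blood and endothelial markers of 5 that had any count summed to at most 0.719 CPM (counts relative to the TMM-scaled library size), and the other 2, HBB and CD3E, were at 0. Vimentin (VIM), which cultured cells of this kind express strongly, stood at 455 ± 3.14 CPM in PGK against 631 ± 12.2 CPM in CAG (SD, n = 3). Of 21 neuronal markers 10 passed the filter on low counts, with 5 higher and 4 lower in CAG, and the summed level over all 21 was 121 to 130 CPM in PGK and 152 to 159 CPM in CAG. Over all 13103 tested genes 62.0% were called, 31.6% higher and 30.4% lower in CAG. The sum over the neuronal markers was mostly DLX2, at a mean of 56.2 CPM in PGK and 89.7 CPM in CAG, and DLX1, at 31.2 and 36.0 CPM. It therefore says little about the other markers. VIP was the single neuronal marker at 0 counts in every library. Others were close to 0: ELAVL3, ELAVL4, STMN2, DCX, SLC17A6, SST and CALB2, named after their values were seen, had at most 3 counts in any library. MAP2, a dendrite protein, had 1, 1 and 1 counts in PGK and 17, 20 and 16 in CAG. Its fitted log2 rise of 3.91 (SE 0.50) rests on those few PGK counts and is not precise. RBFOX3, the nuclear marker of neurons, fell by 1.18 on the log2 scale. Transcription factors of GABA neurons went both ways: DLX2 rose by 0.68 and DLX1 by 0.21, while DLX5 fell by 1.03, LHX6 by 0.55 and DLX6 by 0.41, the last 3 and DLX1 being chosen after their values were seen. PVALB, of interneurons, rose by 1.21, a call lost with DESeq2 (adjusted p = 0.0732) and without CAG replicate 3 (adjusted p = 0.0772 in edgeR's quasi-likelihood test). Of 8 tested epithelial and kidney line markers 4 were higher and 2 lower, and that list summed to 675 to 697 CPM in PGK and 860 to 897 CPM in CAG. VIM, which is on that list, made up most of both sums and of the difference between them. Any part of these markers in the differences below was not tested, and in bulk RNA fewer expressing cells and less RNA per cell cannot be told apart.

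The 2 genes of the set that were above a few counts, GABRA3 and GABRE, lie on the same strand of chromosome X, and each holds microRNA genes within its span. The mature microRNAs from the 5′ arms are shown because they lie on the same strand within the genes on which the results turn. They were not measured, since none of these microRNA genes has a row in the counts, and no level is inferred. Sequences and positions are from RefSeq on GRCh38.p14, which is not the hg19 build of the counts, and capitals mark the seed, bases 2 to 8.
hsa-miR-105-5p (within GABRA3, chrX:152392265-152392287, minus strand, first of 2 identical copies): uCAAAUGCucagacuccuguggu
hsa-miR-767-5p (within GABRA3, chrX:152393481-152393503, minus strand): uGCACCAUgguugucugagcaug
hsa-miR-224-5p (within GABRE, chrX:151958628-151958652, minus strand): uCAAGUCAcuagugguuccguuuag
hsa-miR-452-5p (within GABRE, chrX:151959678-151959699, minus strand): aACUGUUUgcagaggaaacuga
The 4 seeds differ from one another, so the host genes shared no seed between them.

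GABRA3 (ENSG00000011677), which encodes the alpha-3 subunit found in developing brain and in brainstem neurons, had reads in the CAG libraries only. It had 0, 0 and 0 counts in PGK replicates 1, 2 and 3, and 184, 201 and 193 counts in CAG replicates 1, 2 and 3. The CAG libraries therefore held the gene at an even level while no PGK library held a single read. At 8.26 ± 0.226 CPM in CAG (SD, n = 3), the level was at least 61.0-fold higher than a floor of 3 counts in each PGK library, which is 0.131 to 0.140 CPM. GABRA3 overlaps the non-coding gene AC116666.1 on the other strand, and whether reads were counted by strand is not stated in the labels or notes, so how reads of the shared stretch were assigned is uncertain.

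GABRE (ENSG00000102287), which encodes the epsilon subunit, a subunit that can make receptors less sensitive to anaesthetics, went the other way. Its counts were 42, 44 and 45 in PGK and 4, 5 and 7 in CAG. All PGK libraries lay far above all CAG libraries, and none of the 6 was at 0. Its level was 1.97 ± 0.0111 CPM in PGK against 0.228 ± 0.0597 CPM in CAG (SD, n = 3). The PGK level was 8.61 times that of CAG, with a 95% exact counting interval of 5.11 to 15.5. On the log2 scale it fell by 3.08 (SE 0.28) in CAG. Such intervals and floors cover counting error only, as PCR copies of a molecule are counted again.

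The other 6 measured genes of the set had at most 2 counts in any library. GABRA4, which encodes an alpha subunit of extrasynaptic receptors, GABRA5, an alpha subunit prominent in the hippocampus, and GABRG3, a gamma subunit, were at 0 counts in all 6 libraries. GABRA2, an alpha subunit linked to the calming effect of benzodiazepines, had 0, 1 and 1 counts in PGK and none in CAG. GABRB1, a beta subunit, had 1, 1 and 0 counts in PGK and none in CAG. GABRB2, the beta subunit of the most common brain receptor, had 2, 2 and 0 counts in PGK and none in CAG. The few reads of these last 3 genes all fell in PGK libraries, but every library was under the floor of 3 counts, so no ratio is given and a difference was not detectable at this depth. GABRA4 and GABRB1 overlap on opposite strands, as do GABRB2 and GABRA6, so single reads there cannot be assigned with certainty.

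**Figure D1:**
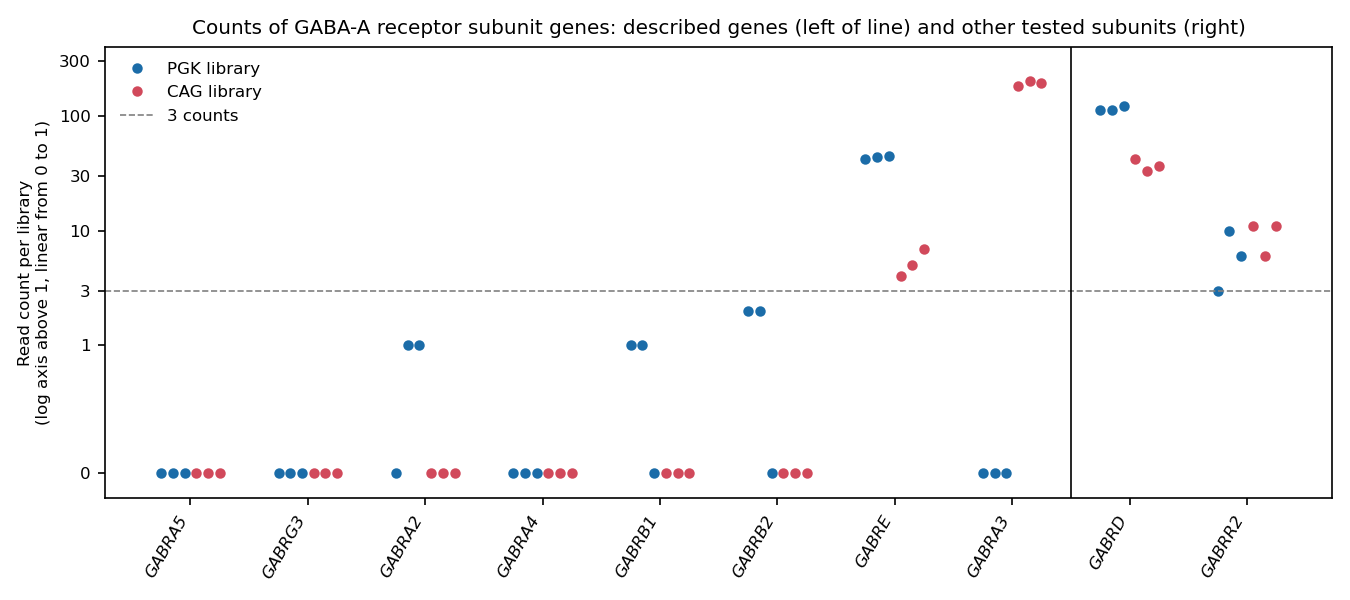
Read counts per library (log axis above 1, linear from 0 to 1) for the 8 measured genes of the set, left of the line, and the other subunit genes that passed the filter on low counts, GABRD and GABRR2, right of it, with 1 point per library. GABRA3 is at 0 in PGK and at 184 to 201 in CAG, GABRE is at 42 to 45 in PGK and at 4 to 7 in CAG, and the other genes left of the line stay at or under 2 counts.

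Only GABRA3 and GABRE passed the filter on low counts, and edgeR's quasi-likelihood test called both, against 62.0% of the 13103 genes tested (31.6% higher and 30.4% lower in CAG). The libraries of the lines did not overlap for either gene, which held for 65.5% of all tested genes. Nothing is read from these counts, as the comparison chose the genes. With no filter on low counts, 5 genes of the set had a count in at least 1 library and 2 were called, again GABRA3 and GABRE.

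Among the subunit genes outside the set, GABRD was lower in the CAG line. GABRD (ENSG00000187730, chromosome 1) encodes the delta subunit of the extrasynaptic receptors that carry tonic inhibition. Its counts were 112, 113 and 123 in PGK and 42, 33 and 37 in CAG, with no overlap between the lines. The level was 5.23 ± 0.155 CPM in PGK against 1.60 ± 0.237 CPM in CAG (SD, n = 3), and it fell by 1.70 on the log2 scale (SE 0.15, adjusted p = 1.67e-08 in edgeR's quasi-likelihood test). GABRR2, a rho subunit, had 3, 10 and 6 counts in PGK and 11, 6 and 11 in CAG. These libraries overlapped, and the log2 fold change of 0.48 (SE 0.45, adjusted p = 0.370) did not pass. GABRR1, another rho subunit, had 1 count in PGK and 1 in CAG. GABRA6, GABRG1 and GABRP were at 0 in every library, and GABRR3 was matched to no row.

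Per kilobase of exon, which allows genes to be compared with each other, the leading subunit differed between the lines. In CAG, GABRA3 stood at 1.97 ± 0.0539 CPM per kilobase (SD, n = 3), followed by GABRD at 0.289 ± 0.0426, GABRR2 at 0.180 ± 0.0574 and GABRE at 0.0237 ± 0.00621. GABRA3 made up 79.7% ± 3.63 of the summed per-length level in CAG of the 17 subunit genes matched to a row. GABRQ and GABRR3 were not matched and are left out of the sum. In PGK, GABRD led at 0.941 ± 0.0280 CPM per kilobase and made up 72.6% ± 4.59 of the sum, ahead of GABRE at 0.205 ± 0.00116 and 15.8% ± 0.702. GABRR2 in PGK, at 0.127 ± 0.0699 CPM per kilobase, reached 0.202 in its highest library against 0.204 in the lowest library of GABRE, so these neighbours in the order were set apart by little more than the spread of GABRR2. The summed level was 1.30 ± 0.0642 CPM per kilobase in PGK and 2.47 ± 0.0510 in CAG. These levels depend on the length used: on the longest annotated transcript in place of all exons, GABRA3 was at 2.22 and GABRD at 0.670 CPM per kilobase in CAG, the share of GABRA3 was 69.9%, and GABRD was at 2.18 in PGK. On that length the summed level was 2.71 ± 0.0856 CPM per kilobase in PGK and 3.19 ± 0.117 in CAG, a much smaller difference between the lines.

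**Figure D2:**
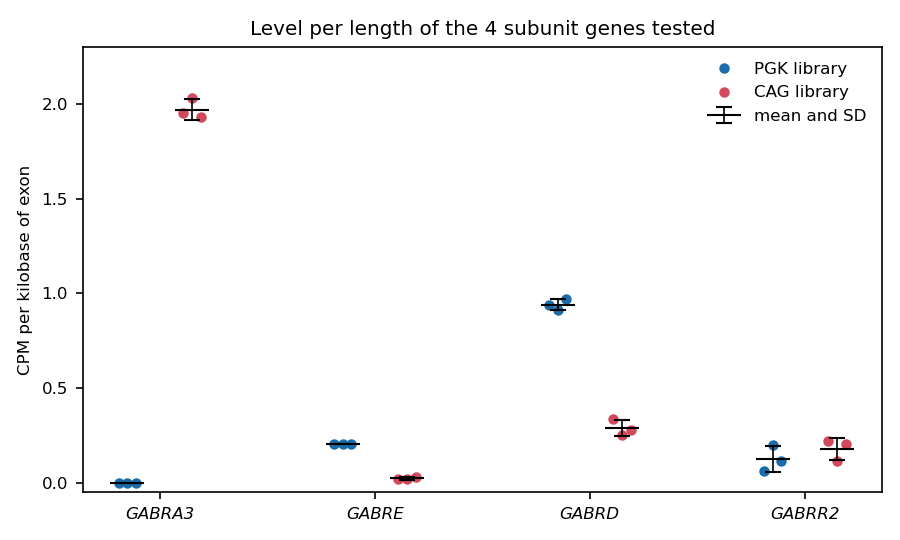
Level in CPM per kilobase of exon of the 4 subunit genes that passed the filter on low counts, with 1 point per library and black marks for the mean and SD of 3 libraries. GABRA3 is the highest in CAG at 1.97 and at 0 in PGK, while GABRD is the highest in PGK at 0.941.

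GABRE and GABRA3 lie in a stretch of chromosome X that also holds MAGE genes, a family expressed in testis and in tumours. Of the 20 tested neighbours, from IDS to ZNF275, 12 were higher and 2 lower in CAG, with a median log2 fold change of 0.32. On all of chromosome X 50.5% of 459 tested genes were higher and 13.7% lower, with a median of 0.19, and over all tested genes the median was 0. The neighbours with the largest differences were MAGEA1, with 0, 0 and 2 counts in PGK and 2687, 2800 and 2886 in CAG, MAGEA6 with a log2 fold change of 6.87 (SE 0.11), PNMA3, a paraneoplastic antigen gene, with 3.64 (SE 0.20), and GPR50, a receptor related to those for melatonin, which fell by 1.93 (SE 0.13). As its PGK libraries were under the floor of 3 counts, the fitted log2 value of MAGEA1, 11.72, is not precise: it was 14.41 without PGK replicate 3 and 11.20 without PGK replicate 2. In edgeR's quasi-likelihood test the adjusted p of these 4 ran from 4.12e-20 for MAGEA1 to 3.31e-10 for GPR50.

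Among rows with a symbol, the genes directly beside the pair were at or near 0 or did not pass the test. The 823 rows without a symbol could not be placed, and whether they include GABRQ is not known. MAGEA10, the gene with a symbol between GABRE and GABRA3, had 4 counts in PGK and 16 in CAG and was too low to test. The CAG to PGK ratio was 3.80, with a 95% exact counting interval of 1.23 to 15.6. MAGEA10 overlaps the annotated gene MAGEA10-MAGEA5 on the same strand, so how its reads were assigned is uncertain. MAGEA4, on the far side of GABRE, was at 0 in every library. MAGEA3, the next gene with a symbol beyond GABRA3, was at 97.8 ± 4.22 CPM in PGK against 101 ± 3.88 CPM in CAG (SD, n = 3). Its log2 fold change of 0.05 (SE 0.05) did not pass, with an adjusted p of 0.395 in edgeR's quasi-likelihood test. MAGEA3 and MAGEA6 are near-identical copies, so the division of reads between them is uncertain.

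**Figure D3:**
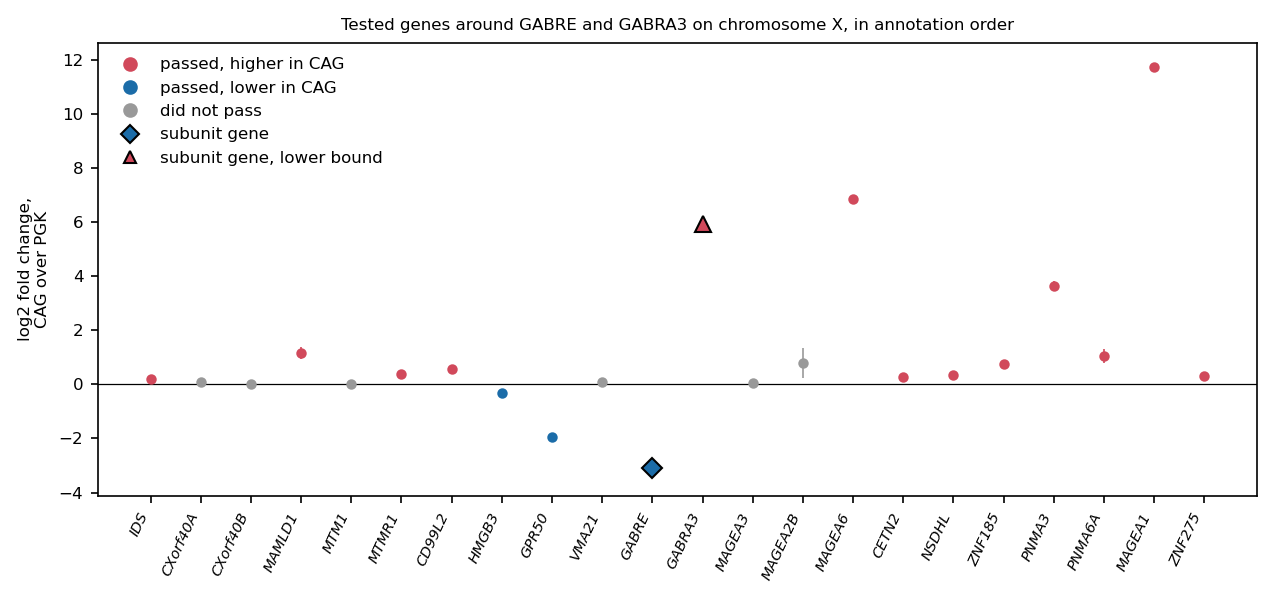
Log2 fold change of CAG over PGK, with SE bars, for tested genes around GABRE and GABRA3 in annotation order (not to distance). The triangle is the lower bound for GABRA3, at least 61.0-fold, and the diamond is GABRE at -3.08. MAGEA3, the next gene with a symbol after GABRA3, is at 0.05.

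The other 3 clusters, in which the genes of the set were at or near 0, lie among expressed genes. On chromosome 4, beside GABRG1, GABRA2, GABRA4 and GABRB1, 5 of 20 tested neighbours were higher and 5 lower, with a median log2 fold change of -0.01. Those with the largest differences were CORIN, a protease of the heart, at 2.55 (SE 0.53; 2, 0 and 5 counts in PGK and 15, 17 and 13 in CAG), UCHL1, a ubiquitin hydrolase of neurons, at 2.32 (SE 0.06), SLC10A4, a carrier of synaptic vesicles, which fell by 1.31 (SE 0.15), and BEND4, which fell by 1.21 (SE 0.06). The CORIN value was 3.66 without PGK replicate 3 and 1.99 without PGK replicate 2. The outer measured genes of this cluster adjoin GNPDA2 at -0.10 (SE 0.10, adjusted p = 0.406) and COMMD8 at -0.28 (SE 0.08, adjusted p = 0.00521) in edgeR's quasi-likelihood test. COX7B2, which lies between GABRA2 and GABRA4, was at 0 counts in every library.

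On chromosome 5, around the cluster of GABRB2 and GABRA6, 17 of 20 tested neighbours were lower and 2 higher in CAG, with a median of -0.49, where 30.4% of all tested genes were lower and 31.6% higher. EBF1, a B cell transcription factor, fell by 1.29 (SE 0.23) and RARS, the arginyl-tRNA synthetase, by 0.80 (SE 0.05). FBLL1, related to fibrillarin, rose by 1.16 (SE 0.33) and CCNJL, related to cyclin J, by 0.92 (SE 0.20). CCNG1, the cyclin gene just beyond the cluster, was at 243 ± 14.8 CPM in PGK against 210 ± 6.65 CPM in CAG (SD, n = 3) and fell by 0.21 (SE 0.05). ATP10B on the other side had 1 count in all. GABRB2 and GABRA6 were thus at or near 0 between neighbours such as CCNG1 with 14684 counts or more per line.

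On chromosome 15, around the cluster of GABRA5 and GABRG3, 5 of 14 tested neighbours were higher and 2 lower, with a median of 0.15. MKRN3, an imprinted gene, rose from 3 counts in PGK to 781 in CAG, a ratio of 248 with a 95% exact counting interval of 84.4 to 1203, and its fitted log2 fold change of 7.79 was 8.62 without PGK replicate 3. OCA2, a pigmentation gene just beyond GABRG3, fell by 0.80 (SE 0.11), with counts of 556 in PGK and 336 in CAG. FAM189A1 rose by 0.76 (SE 0.14) and GOLGA8H, of a multicopy golgin family whose reads may be shared, by 0.67 (SE 0.25), a call that was lost without PGK replicate 2 or CAG replicate 1, with adjusted p of 0.147 and 0.114 in edgeR's quasi-likelihood test, and with DESeq2 at 0.0555. Over the 4 clusters 50 of 74 neighbours were called (67.6%), beside 62.0% of all tested genes.

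**Figure D4:**
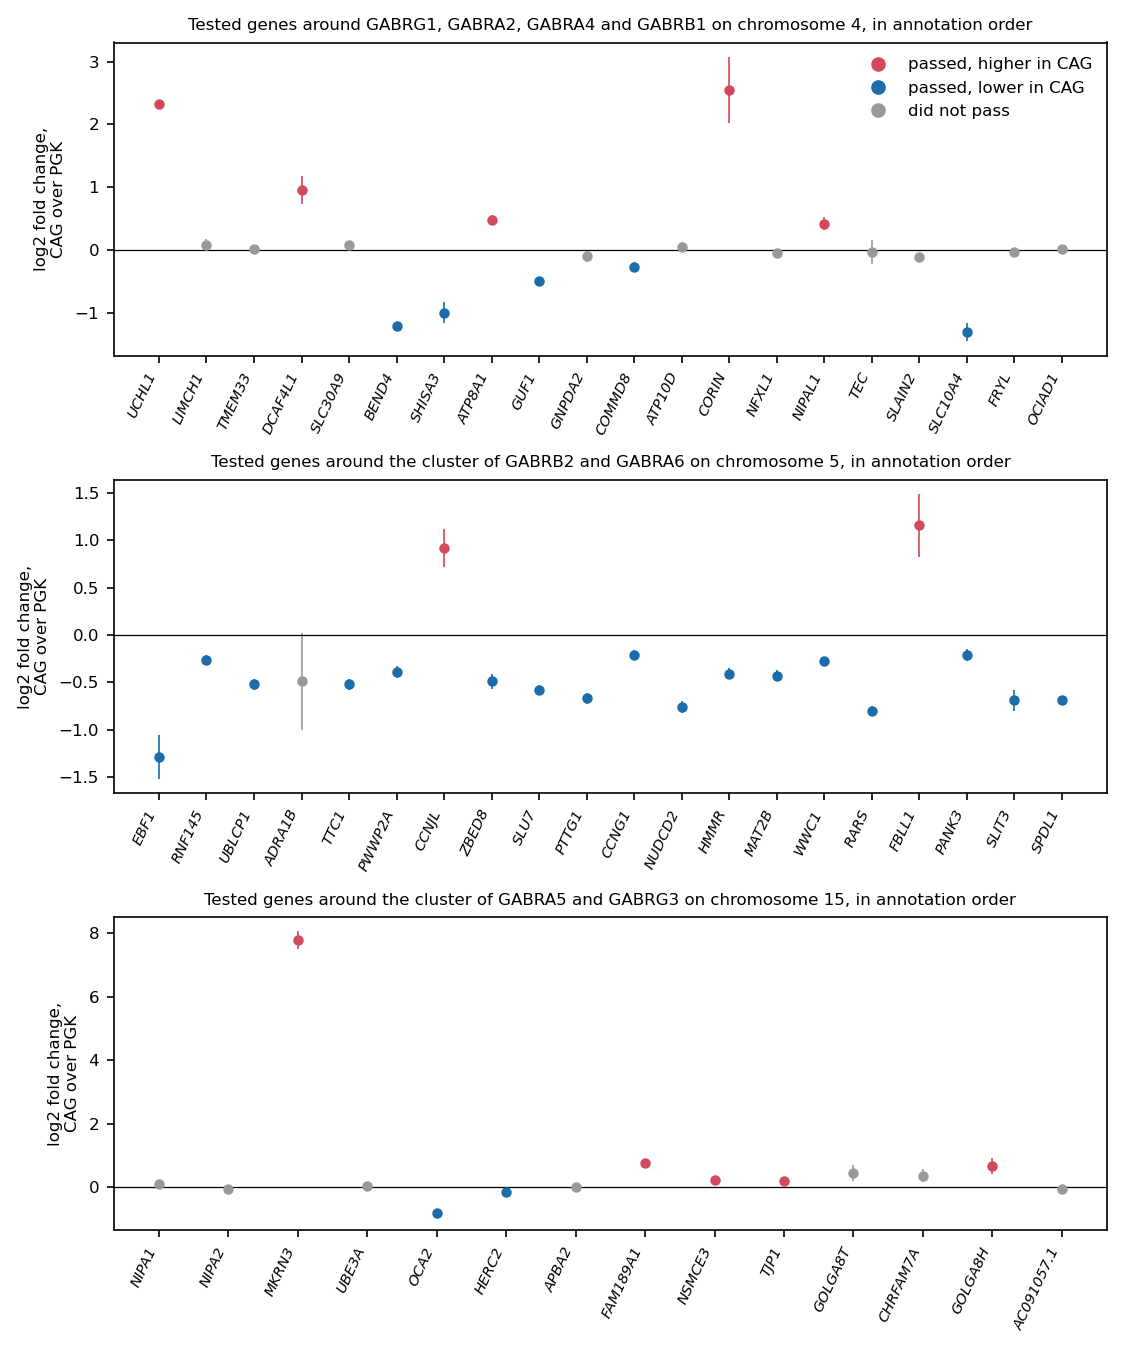
Log2 fold change of CAG over PGK, with SE bars, for tested genes around the subunit clusters of chromosomes 4, 5 and 15 in annotation order, without subunit genes. Most chromosome 5 neighbours lie below 0 (median -0.49), and MKRN3 stands at 7.79 on chromosome 15.

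Genes related to the receptor changed in both directions. The 7 lists held 105 measured genes, among them other GABA-A subunits and Cys-loop receptors, of which 17 were at 0 in every library. Of the 105 genes, 61 were tested: 26 were higher, 14 were lower and 21 did not pass. The share called, 65.6%, was close to the 62.0% of all tested genes, and the median log2 fold change was 0.14. Of 26 tested genes of receptor assembly, trafficking and the inhibitory synapse, 10 were higher and 5 lower, with a median of 0.07. DAG1, the dystroglycan of inhibitory synapses, rose by 0.94 (SE 0.05) and CLPTM1, which holds receptors in the endoplasmic reticulum, by 0.65 (SE 0.05), while NLGN2, the adhesion protein of inhibitory synapses, fell by 0.76 (SE 0.05). DYNLL1, a dynein light chain that binds gephyrin, was at 258 ± 10.7 CPM in CAG and 227 ± 16.6 CPM in PGK (SD, n = 3) and rose by 0.19 (SE 0.05), a call lost without CAG replicate 1 (adjusted p = 0.0509 in edgeR's quasi-likelihood test). GPHN, which encodes the scaffold gephyrin, changed by -0.12 (SE 0.07, adjusted p = 0.131, not past the threshold), and GABARAP, which carries receptors to the surface, fell by 0.14 (SE 0.05, adjusted p = 0.0253), both in edgeR's quasi-likelihood test and both chosen after their values were seen.

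Transporters of GABA changed in both directions. Of 7 tested genes of GABA synthesis, transport and breakdown 4 were higher and 2 lower, with a median of 0.40. SLC6A13, a GABA transporter, had 5, 3 and 2 counts in PGK and 20, 25 and 27 in CAG, and rose by 2.73 (SE 0.38). SLC6A12, the betaine and GABA transporter, had 3, 4 and 4 counts in PGK and 11, 17 and 20 in CAG, and rose by 2.02 (SE 0.41). Both were low in both lines, although the libraries of the lines did not overlap. SLC6A11, the transporter of astrocytes, was lower, at 23.0 ± 0.637 CPM in PGK against 12.2 ± 0.769 CPM in CAG (SD, n = 3), and fell by 0.92 (SE 0.07). Enzymes, chosen after their values were seen, also went in both directions: ALDH5A1, which oxidises the breakdown product of GABA, rose by 0.85 (SE 0.07), GAD1, which makes GABA, rose by 0.40 (SE 0.10), and the GABA transaminase ABAT fell by 0.35 (SE 0.09). ALDH9A1, the tested gene of the list with the highest CPM, changed by -0.08 (SE 0.05), which did not pass.

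Metabotropic GABA-B receptors had 1 gene higher and 1 lower of 3 tested. GABBR2, the subunit that couples to G proteins, rose by 0.68 (SE 0.17), and KCTD12, an auxiliary subunit, fell by 0.60 (SE 0.05) from 237 ± 7.76 CPM to 156 ± 7.85 CPM (SD, n = 3). The auxiliary subunit KCTD8, chosen after its values were seen and too low to test, had 9, 16 and 18 counts in PGK and 0 in each CAG library, at least 4.99-fold lower against the floor. Of 13 tested genes of the chloride gradient, which sets whether GABA inhibits or excites, 4 were higher and 3 lower, with a median of 0.04. The kinase WNK4 fell by 1.38 (SE 0.12) and the chloride channel CLCN2 by 0.84 (SE 0.11), while the kinase OXSR1 rose by 0.71 (SE 0.05). WNK1, the tested gene of that list with the highest CPM, changed by 0.04 (SE 0.06, adjusted p = 0.606 in edgeR's quasi-likelihood test), which did not pass. WNK4 and CLCN2 each overlap a gene on the other strand and are uncertain.

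Among endogenous modulators, DBI, the diazepam-binding inhibitor, fell by 0.30 (SE 0.07). TSPO, which serves neurosteroid synthesis, rose by 0.17 (SE 0.07) and the steroid reductase SRD5A1 by 0.23 (SE 0.09), but both calls were lost with DESeq2 (adjusted p = 0.0618 and 0.110). In edgeR's quasi-likelihood test the TSPO call was also lost when PGK replicate 2, CAG replicate 1 or CAG replicate 3 was left out (highest adjusted p = 0.196). The SRD5A1 call was lost in that test when replicate 1 or 3 of either line was left out (highest adjusted p = 0.146). The other Cys-loop receptors, the superfamily to which GABA-A receptors belong, had 7 of 27 genes tested, of which 5 were higher and 1 lower, with a median of 0.68. CHRNA3, a nicotinic receptor subunit of ganglia, rose by 1.34 (SE 0.21), the glycine receptor subunit GLRB rose by 0.88 (SE 0.13), and CHRNA4, a nicotinic subunit of brain, fell by 1.37 (SE 0.30). CHRNA5, another nicotinic subunit and the tested gene of the list with the highest CPM, rose by 0.68 (SE 0.08). CHRNA3 and CHRNA5 overlap on opposite strands and are uncertain.

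**Figure D5:**
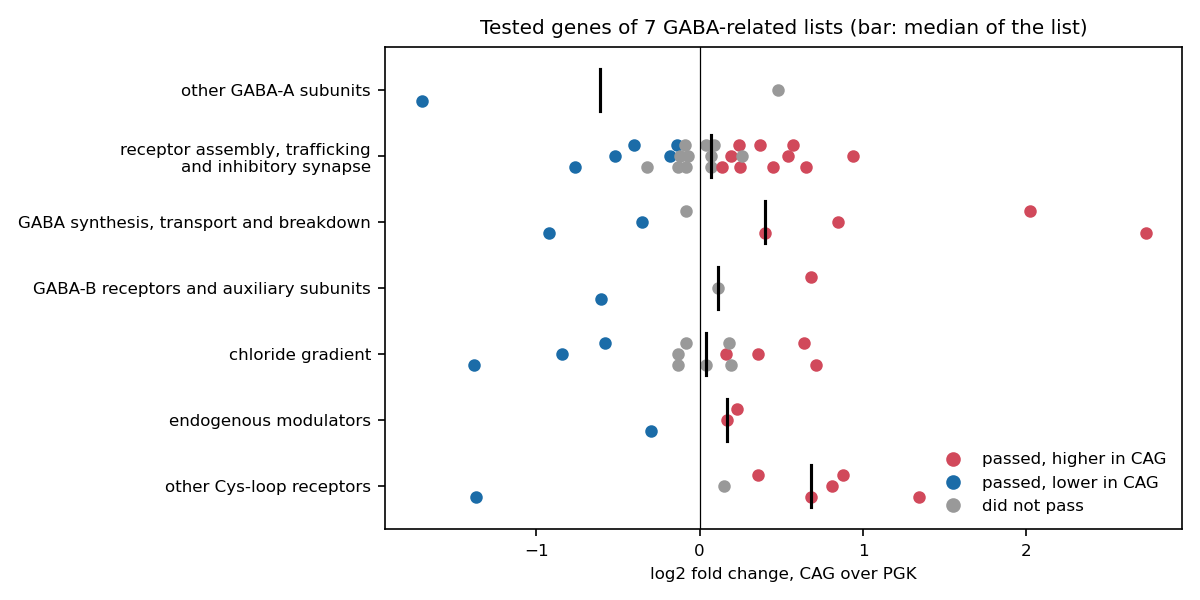
Log2 fold change of CAG over PGK for the 61 tested genes of 7 GABA-related lists, with 1 point per gene, colour for genes that passed the test, and a bar at the median of each list. SLC6A13 at 2.73 and GABRD at -1.70 are the ends of the range.

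Few genes shared the exact profile of GABRA3 over the 6 libraries. Besides GABRA3, 3 genes had 0 counts in every PGK library and at least 100 counts in each CAG library, none of them on chromosome X, among them GTSF1, a germline gene of chromosome 12, and ZBED6CL on chromosome 7. That cut follows the profile of GABRA3 itself. MAGEA1 of chromosome X missed it through 2 counts in PGK replicate 3, under the floor of 3 counts. MKRN3, ZNF544 and SYNDIG1, on other chromosomes, also missed it with at most 3 counts in any PGK library. By the Euclidean distance of log2(CPM + 0.5) over the 6 libraries, the nearest genes to GABRA3 included ZNF544 at 0.58, MKRN3 at 0.77, TCEAL3 at 0.99 and SYNDIG1 at 1.01. ZNF544, a zinc finger gene of chromosome 19, had 4 counts over the PGK libraries, and its CAG level was 9.95 ± 0.408 CPM (SD, n = 3). TCEAL3, on chromosome X, had 15 PGK counts and a CAG level of 8.04 ± 0.519 CPM, and SYNDIG1, a synapse gene of chromosome 20, had 2 and 5.54 ± 0.778 CPM. For GABRE, whose nearest genes were taken by the same distance after its values were seen, these were the adhesion receptor ADGRB1 at 0.37, the glutamate receptor GRIK3 at 0.42, the serotonin receptor HTR6 at 0.48, PTCHD1 at 0.55 and the cartilage matrix gene COMP at 0.58. ADGRB1 was at 1.94 ± 0.111 CPM in PGK and 0.213 ± 0.110 CPM in CAG, and GRIK3 at 2.17 ± 0.334 and 0.215 ± 0.0436. Of the 4 genes named as nearest to GABRA3, TCEAL3 shared its chromosome, and of the 5 nearest to GABRE, PTCHD1 did. Beside the overlaps already given, these genes named above overlap a gene annotated on the opposite strand and carry the same uncertainty: GABRA2, GABRA5, GABRG3, GABRP, GABRR2, ALDH9A1, ATP10B, BEND4, CCNJL, CHRNA4, CORIN, DYNLL1, EBF1, FAM189A1, GABBR2, GNPDA2, GOLGA8H, GPR50, MAGEA4, MAP2, MKRN3, OCA2, PVALB, RBFOX3, SLC6A12, SYNDIG1, TCEAL3, UCHL1, VIM, WNK1 and ZNF544. On the same strand, these overlap an annotated gene other than the microRNAs: GABRA3, GABRG3, ALDH9A1, CHRNA3, FAM189A1 (NSMCE3), GNPDA2, GOLGA8H, PTCHD1, SLC6A13, TCEAL3 (TCEAL1), WNK1 and ZNF544. Overlaps were looked up only for the subunit genes, genes of the naming rule and the nearest genes to GABRE. Other named genes, among them DLX1, DLX5, DLX6, LHX6, GAD1, ABAT, KCTD8, GPHN and GTSF1, were not looked up.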

How the data were processed

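Total read counts per gene were deposited by the authors for 6 libraries, 3 per line, not normalized and not pooled. The submitters' processing notes list featureCounts 2.0.3, HISAT2 2.2.1, Bowtie2 2.5.1 and cutadapt 4.6, and the build hg19. The labels and notes used here do not state the annotation, the strand setting or the treatment of multi-mapping reads. GENCODE 29, built on GRCh38, gave symbols, annotation order, overlaps and exon lengths for 19346 of 20169 rows. Columns left without a sample numbered 0.

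Genes were filtered with filterByExpr, scaled by TMM and compared with edgeR 4.0.16 in R 4.3.3 by its two-sided quasi-likelihood test with a robust fit. P-values were adjusted by Benjamini-Hochberg over the 13103 genes kept, with a threshold of 0.05. Fold changes are CAG over PGK, and the SE is the size of that log2 value divided by the square root of F. Neighbours were up to 10 tested genes with a symbol on each side of a subunit cluster, with 4 before that of chromosome 15. Named genes were the set, up to 3 called genes with the largest change and the gene with the highest CPM per list, up to 4 called per cluster with the genes beside each subunit gene, and the 5 nearest to GABRA3; a few that it picks are not reported here. The set and lists were chosen with earlier results of these data known. On simulated counts for 13103 genes, with 50 genes changed at each fold, 52% of 1.25-fold, 86% of 1.5-fold and 98% of 2-fold changes were recovered. In the data 62.0% of tested genes were called, a far larger share than was changed in the simulation. The rates may therefore not hold for the data, nor for genes of few counts. Alternatives used other filters and size factors, DESeq2 1.42.0, limma-voom (limma 3.58.1), a replicate block and leaving out each library.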

Additional observations from a re-analysis of the deposited data

How the results depend on the processing

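Of the 60 other tested genes picked by the naming rule, 55 kept their direction and their side of the threshold in each of the 13 alternatives that gave them a value (8 genes were not kept by the filter of at least 1 CPM in 3 libraries), and 5 (DYNLL1, GOLGA8H, PVALB, SRD5A1 and TSPO) lost their call in at least 1. For GABRA3 the fitted log2 fold change of 10.55 rests on 0 counts in PGK and moved to 9.95 with DESeq2 and 8.52 with limma-voom, and ran from 10.52 to 10.57 with a library left out. GABRE, at -3.08, ran from -3.30 to -2.94 with a library left out. On the longest annotated transcript, the levels per kilobase were 2.22 CPM for GABRA3 in CAG, 0.319 for GABRE in PGK and 0.0369 in CAG, and 2.18 for GABRD in PGK and 0.670 in CAG. Leaving out 1 library gave 7326 to 8030 called genes, 36 to 43 GABA pathway genes and 48 to 51 neighbours of the subunit clusters.

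With the replicate number as a block, 8861 genes, 45 pathway genes and 51 neighbours were called, and no call of the 60 named genes changed. Same-numbered libraries deviated together with correlations of 0.108, 0.103 and 0.013, and each library correlated best with its own number, a hint from the data and not from the labels. For the 6 subunit genes of the set at or under 2 counts in every library, depth allows no comparison.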
